A study of Rattus norvegicus with 25 samples.

Results

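Estrogen receptors alpha and beta (Esr1, Esr2), the progesterone receptor (Pgr) and 4 coregulators that steroid receptors recruit (Ncoa1, Ncoa2, Ncoa3 and Ncor1) were followed in 2 limbic regions of stressed rats. The rows whose gene name equalled a member, ignoring case, were taken from both tables, which gave 7 of 26312 gene identifiers in each region, 1 identifier per member. RNA came from micropunches of the left basolateral amygdala (BLA) and the left dorsal dentate gyrus (DG) of adult male Sprague-Dawley rats, collected on day 9 after a single exposure to 3 h of immobilization with the scent of a predator. Stress-low animals had a composite anxiety-like score of 0 to 2 in the tests that followed, stress-high animals scored 13 to 15, and control animals, scored 0 to 6, were not stressed. The BLA gave 7 control, 3 stress-low and 3 stress-high libraries and the DG gave 6, 3 and 3, with 1 library per animal and region and 11 animals in both regions. The stress groups were thus chosen from the ends of a behavioural scale and the controls from across theirs, and the tissue was a bulk punch of every cell type in it, in which fewer cells of a type and less RNA per cell cannot be told apart.

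Estrogen receptors alpha and beta are transcription factors that estradiol switches on, and in the male brain much of that estradiol is made locally from testosterone by aromatase. The progesterone receptor is a related receptor whose gene is induced by estradiol in several brain areas. A receptor bound to its hormone recruits coactivators of the p160 family, Ncoa1 (SRC-1), Ncoa2 (SRC-2, also GRIP1) and Ncoa3 (SRC-3, also AIB1), which bring histone acetyltransferases to the promoter. Ncor1 belongs to the opposing class, the corepressors, and carries the histone deacetylase Hdac3 to receptors that are unliganded or bound to an antagonist. The p160 proteins and Ncor1 also serve glucocorticoid, thyroid and other nuclear receptors.

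Some facts of the libraries touch these values. Total expected counts ranged from 12709493 to 22801247 in the BLA and from 11656439 to 19477932 in the DG. In the DG all stress-low libraries (11656439 to 15547038) were shallower than all stress-high libraries (16201792 to 19477932), so depth and stress outcome cannot be told apart there. The study excluded a control library in each region, and its text does not give the animals' numbers. Here the control farthest from the others on the first principal component was left out, animal 2 in the BLA and animal 35 in the DG, which left 12 and 11 libraries. The BLA library of animal 35 carries a stressed label in one field and a control name in another, and it was taken as a control, as its DG library is. All stress-high animals were numbered 20 or below and all stress-low animals 22 or above, so the order of the animals and the stress outcome cannot be told apart without the controls. Summed levels of 7 dentate granule cell markers were 443.80 to 735.54 TPM (transcript abundance per length, scaled to a fixed total per library) in the DG and 10.59 to 13.94 TPM in the BLA, as the labels had it. Those of 6 markers of excitatory neurons of the basolateral amygdala and cortex went the other way. They were 952.77 to 1386.89 TPM in the BLA and 1723.32 to 2238.45 TPM in the DG, so they did not mark the BLA. Stressed animals were kept for a time after the exposure in a room apart from the colony, so that stay and the stress cannot be told apart against controls, and p-values measure the spread between these animals only. The length model of the tables differed between regions (the effective transcript length was 50 bases shorter than the transcript in the BLA and 260.78 to 274.29 bases shorter in the DG), so levels of the regions are given side by side and only changes within a region were tested against each other.

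The 7 genes kept the same order of median level in both regions, corepressor first and estrogen receptors last. In the BLA the median level was 98.56 TPM for Ncor1, 54.185 for Ncoa1, 20.805 for Ncoa2, 9.51 for Ncoa3, 5.30 for Pgr, 1.33 for Esr1 and 0.625 for Esr2 (n = 12 libraries). In the DG the medians were 115.04 TPM for Ncor1, 74.54 for Ncoa1, 29.06 for Ncoa2, 12.62 for Ncoa3, 5.50 for Pgr, 0.29 for Esr1 and 0.07 for Esr2 (n = 11 libraries). TPM values are scaled for transcript length, so genes can be compared on them. From Ncor1 down to Esr1, the library ranges of neighbouring genes did not overlap in either region. Esr1 and Esr2 did overlap, with Esr1 the higher in 11 of 12 BLA libraries and in 11 of 11 DG libraries. Within a single library Ncoa1 thus held more transcripts than the other p160 members together, and both estrogen receptors were listed below 3 TPM in every library.

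**Figure D1:**
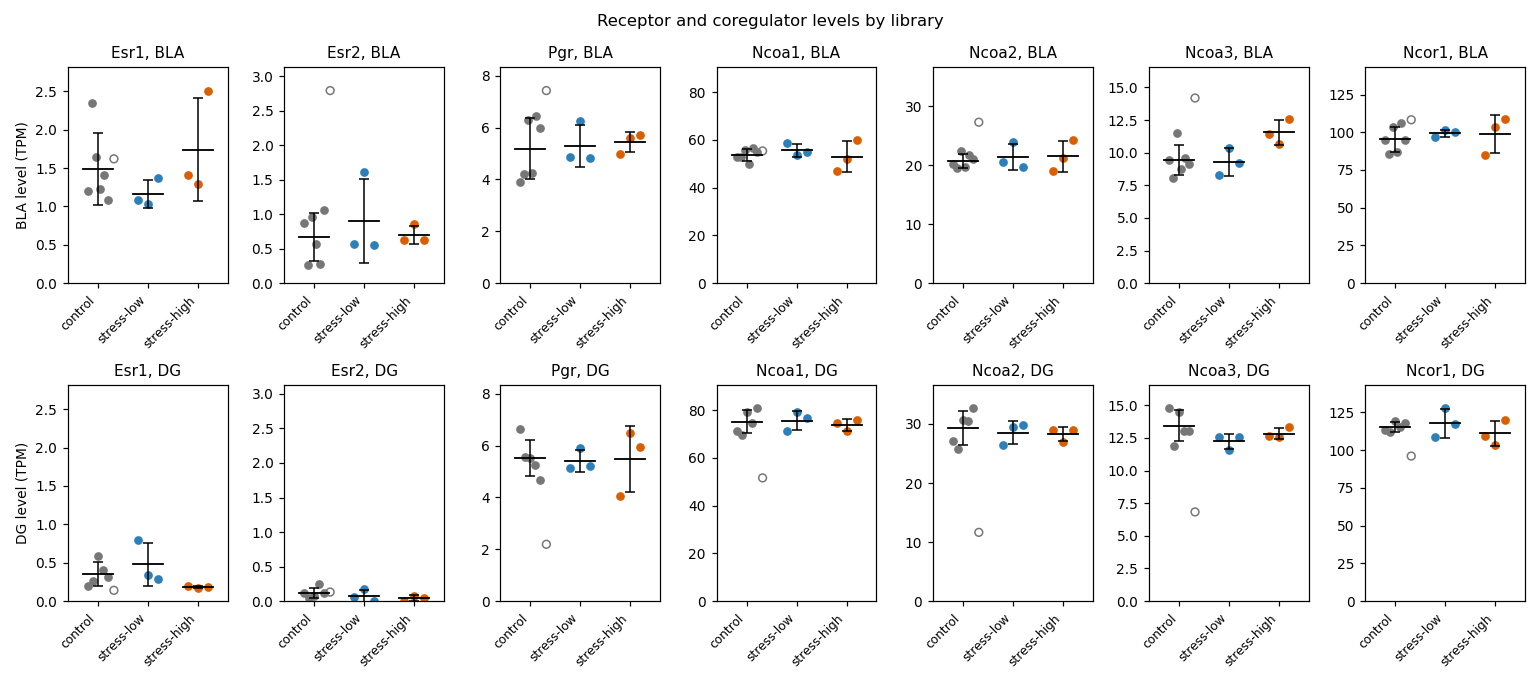
Level in TPM (vertical axis, from 0, on the same scale in both regions for a gene) of the 7 genes in each library of the BLA (top) and the DG (bottom), by group. Filled points are libraries used, open points the left-out control, and bars the mean ± SD of the filled points. Ncoa3 in the BLA is the panel in which the 3 stress-high points (10.68 to 12.60 TPM) lie above the 3 stress-low points (8.28 to 10.38 TPM), while Esr1 and Esr2 sit near 0 in the DG.

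Esr1 was listed higher in stress-high animals in the BLA and lower in the DG, on few reads and in neither region past correction. In the BLA it was listed at 1.08, 1.03 and 1.37 TPM in stress-low animals 22, 30 and 34, and at 1.41, 1.29 and 2.51 TPM in stress-high animals 7, 19 and 20. Controls ran from 1.09 to 2.35 TPM with a median of 1.32. The stress groups overlapped, since animal 34 exceeded animal 19, and the control group held a library, that of animal 17, nearly as high as animal 20. These levels rest on 19 to 51 expected counts per library. The log2 fold change of stress-high over stress-low was 0.59 (SE 0.31, 95% interval -0.08 to 1.27), with an unadjusted p of 0.0807 and an adjusted p of 1 in edgeR's quasi-likelihood test. It was 0.34 without animal 20, and 0.18 with the animal number (20 or below against above) as a covariate. Controls alone set that covariate, 2 of them numbered 20 or below and 4 above.

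In the DG, Esr1 was listed at 0.80, 0.34 and 0.29 TPM in stress-low animals 22, 33 and 34, and at 0.20, 0.17 and 0.18 TPM in stress-high animals 7, 19 and 20. Here the order was the reverse of that in the BLA and the groups did not overlap. Expected counts were 15, 6 and 4 in the stress-low libraries and 4 in each stress-high library, too few for the count filter (10 counts) of the DG fit. The exact two-sided permutation test of mean TPM gave p = 0.1, the smallest p that 3 against 3 libraries allow. In the DG, 8.69% of all genes tested had groups of 3 that did not overlap, so such a separation alone was not rare. Esr1 failed the count filter and is not among those genes, so the share is only a rough scale for it. When edgeR was run without the count filter, the log2 fold change was -1.39 (SE 0.56, 95% interval -2.58 to -0.20; unadjusted p = 0.0247, adjusted p = 1). Animal 22 carried much of this: without it the log2 ratio of mean TPM went from -1.38 to -0.78. DG controls ran from 0.19 to 0.59 TPM with a median of 0.31 and overlapped both stress groups. Also without the count filter, a joint edgeR fit of both regions put the BLA change minus the DG change at 1.99 (SE 0.61, 95% interval 0.74 to 3.24). That fit held no term for the animal, although most stressed animals gave a library in both regions. Its unadjusted p was 0.00301 and its adjusted p was 1. The difference therefore did not pass correction over all genes.

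Esr2 varied more between animals than between groups. In the BLA it was listed at 0.56, 1.61 and 0.55 TPM in stress-low animals 22, 30 and 34, and at 0.63, 0.85 and 0.62 TPM in stress-high animals 7, 19 and 20. Controls ran from 0.26 to 1.06 TPM with a median of 0.715, and covered all stress-high libraries. Animal 30 stood alone above the rest, and the fold change turned on it: stress-high over stress-low was -0.41 (SE 0.53) on the log2 scale with it and 0.31 without it. The left-out control of animal 2 had the highest Esr2 level of all, 2.79 TPM. The 3 BLA libraries with the highest Esr2, of animals 2, 30 and 35, were also the 3 with the highest summed level of 9 striatal and central amygdala markers, at 483.61, 285.10 and 300.90 TPM against 124.06 to 171.72 TPM in the other libraries. The same 3 libraries were also the highest for summed markers of medial amygdala and hypothalamic neurons, at 30.12, 30.00 and 29.98 TPM. Animal 20 was next, at 28.98 TPM. They were again the highest for CA1 and CA3 pyramidal neuron markers, at 414.34, 247.00 and 281.76 TPM, with animal 20 next at 228.28 TPM. The part of any of these markers in the Esr2 values was not tested. In the DG, Esr2 had 0 to 4 expected counts in every library. The 2 libraries at 0 counts allow up to 3 counts each, so no difference in Esr2 was detectable at this depth and no fold is given.

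Pgr, the receptor gene that estradiol induces, was listed at 4.85, 6.24 and 4.81 TPM in the stress-low BLA and at 4.99, 5.61 and 5.72 TPM in the stress-high BLA. Controls covered both groups, from 3.89 to 6.46 TPM. In the DG its levels were 5.14, 5.91 and 5.21 TPM in stress-low and 4.05, 6.49 and 5.93 TPM in stress-high animals. The groups overlapped in both regions. The log2 fold change of stress-high over stress-low was 0.08 in the BLA (95% interval -0.29 to 0.44) and 0.03 in the DG (95% interval -0.33 to 0.39). With the animal number as a covariate the BLA value of Pgr was 0.55 (unadjusted p = 0.0156 in edgeR). That covariate was set by the controls alone, 2 numbered 20 or below (mean 4.06 TPM) and 4 above (mean 5.75 TPM). The DG value had the other sign in 9 of 16 refits, which ran from -0.24 to 0.18. Leaving out 1 library at a time, it ran from -0.13 without animal 19 to 0.18 without animal 7.

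Ncoa3 was selected on its TPM values in the stress-high and stress-low BLA libraries, and the other members stand beside it as receptors and coregulators of the same pathway. The BLA comparison of Ncoa3 is therefore a description and carries no test here. Stress-low animals 22, 30 and 34 were at 8.28, 10.38 and 9.19 TPM, and stress-high animals 7, 19 and 20 were at 11.42, 10.68 and 12.60 TPM. The gap between the groups was narrow, from 10.38 to 10.68 TPM, beside group means of 9.28 ± 1.05 and 11.6 ± 0.968 TPM (SD, n = 3 each). The log2 fold change was 0.36 (SE 0.10), a ratio of 1.28. In the BLA, 5.89% of all genes tested had stress groups that did not overlap, and Ncoa3 was the single member of the 7 among them.

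The BLA controls overlapped both stress groups for Ncoa3. The 6 controls used ran from 8.07 to 11.51 TPM with a median of 9.30, so the control of animal 27 exceeded the stress-high animals 7 and 19. The left-out control of animal 2 was at 14.19 TPM, above every stress-high library. On the log2 scale stress-high exceeded control by 0.30 (SE 0.08), and stress-low over control was -0.05 (SE 0.08). Controls numbered 20 or below, like the stress-high animals, were at 8.07 and 9.43 TPM, and those numbered above 20, like the stress-low animals, at 8.77 to 11.51 TPM. With the left-out control put back, stress-high over control was 0.24. These comparisons share the libraries on which Ncoa3 was chosen, and the 2 comparisons with controls share the control libraries, so neither is tested here.

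Ncoa3 in the DG was measured in libraries that the choice did not use, although 5 of the 6 stressed animals were the same (7, 19, 20, 22 and 34). Stress-low animals 22, 33 and 34 were at 12.61, 11.54 and 12.56 TPM, and stress-high animals 7, 19 and 20 at 12.62, 12.56 and 13.31 TPM. The groups overlapped by a small margin, with animal 22 above animal 19. The 5 controls used ran from 11.87 to 14.76 TPM and covered all but 1 of the 6 stressed libraries. The log2 fold change of stress-high over stress-low was 0.07 (SE 0.07, 95% interval -0.09 to 0.23; unadjusted p = 0.348 and adjusted p = 1 in edgeR).

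The difference of the Ncoa3 changes between regions was 0.27 on the log2 scale (SE 0.12) in a joint fit of 23 libraries. Since the BLA change chose the gene, this difference too is a description. With the animal as a replicate block, which removes what a rat's regions share, it was 0.36. Only animals used in both regions bear on that value, which leaves stress-low animals 22 and 34. The 0.27 and the 0.36 thus rest on different sets of animals. In the animals measured in both regions, the ratio of BLA to DG level was 0.905, 0.850 and 0.947 in stress-high animals 7, 19 and 20. It was 0.657 and 0.732 in stress-low animals 22 and 34, and 0.557 to 0.794 in the 4 controls used in both regions. All 3 stress-high ratios were thus above the other 6. Among libraries left out of a region, animal 2 had a ratio of 0.961 and animal 35 a ratio of 1.34, both above all 3 stress-high ratios.

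**Figure D2:**
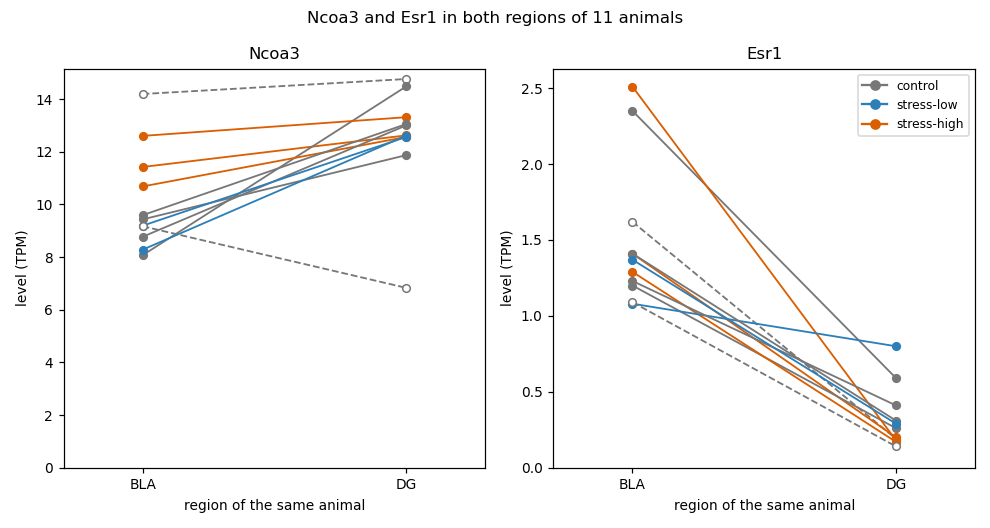
Level in TPM (vertical axis, from 0) of Ncoa3 (left) and Esr1 (right) in the BLA and the DG of the same animal, a line per animal, coloured by group; dashed lines with open points are the 2 animals left out in 1 region. For Ncoa3 the 3 stress-high lines begin at 10.68 to 12.60 TPM in the BLA and end among the others in the DG, and for Esr1 the 3 stress-high lines end at 0.17 to 0.20 TPM.

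The other p160 coactivators showed no such pattern. Ncoa1 was at 58.69, 53.51 and 54.90 TPM in stress-low and at 46.95, 51.86 and 60.03 TPM in stress-high BLA libraries. Stress-high animals 7 and 20 were thus the lowest and the highest of all 12 libraries. Ncoa2 was at 20.55, 23.92 and 19.62 TPM in stress-low and at 19.02, 21.28 and 24.19 TPM in stress-high BLA libraries, again with animals 7 and 20 at the ends. In the DG, Ncoa1 stayed within 69.73 to 80.65 TPM and Ncoa2 within 25.75 to 32.63 TPM over the 11 libraries, with all 3 groups overlapping. Stress-high over stress-low for Ncoa1 was -0.04 in the BLA (95% interval -0.17 to 0.09) and -0.03 in the DG (95% interval -0.15 to 0.10). For Ncoa2 it was 0.05 in the BLA (95% interval -0.09 to 0.18) and -0.01 in the DG (95% interval -0.17 to 0.16). None of these 4 intervals reached 0.20 in either direction.

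A share within the p160 genes removes whatever scales a whole library. Ncoa3 made up 14.8%, 12.7% and 13.0% of the summed Ncoa1, Ncoa2 and Ncoa3 TPM in the BLA of stress-high animals 7, 19 and 20, against 9.46%, 11.8% and 10.98% in stress-low animals 22, 30 and 34. The 6 controls used ran from 10.1% to 12.9%, and the highest of them, animal 27, exceeded animal 19. The sum itself was 86.0 ± 9.90 TPM in stress-high and 86.3 ± 2.29 TPM in stress-low BLA (SD, n = 3 each), so the p160 pool was of like size while its Ncoa3 part differed. In the DG the Ncoa3 share was 11.2% ± 0.257 in stress-high, 10.5% ± 0.921 in stress-low (SD, n = 3 each) and 11.4% ± 1.03 in controls (SD, n = 5). Because Ncoa3 enters the share, the BLA values remain a description.

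**Figure D3:**
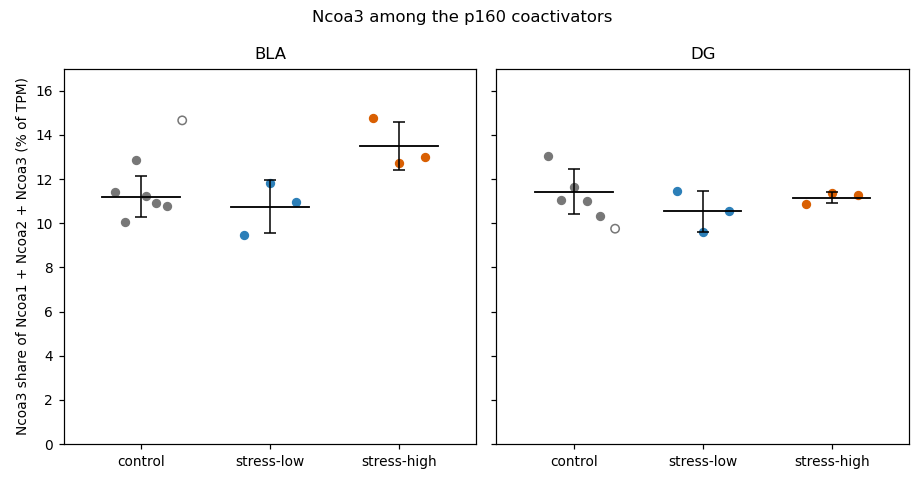
Ncoa3 as a percentage of the summed TPM of Ncoa1, Ncoa2 and Ncoa3 (vertical axis, from 0) in each library by group, for the BLA (left) and the DG (right). Filled points are libraries used, open points the left-out control, bars the mean ± SD. The stress-high BLA points lie at 12.7% to 14.8%, the stress-low points at 9.46% to 11.8%, and the open BLA control point among the stress-high ones.

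Ncor1, the corepressor and the most abundant member, was at 96.79, 101.25 and 100.33 TPM in stress-low and at 84.77, 103.15 and 108.78 TPM in stress-high BLA libraries. In the DG it was at 108.60, 127.62 and 117.21 TPM in stress-low and at 109.56, 103.34 and 120.24 TPM in stress-high libraries. The groups overlapped in both regions. Stress-high over stress-low was 0.04 in the BLA (95% interval -0.11 to 0.18) and -0.02 in the DG (95% interval -0.13 to 0.09). The ratio of Ncor1 to the p160 sum was 1.15 ± 0.0713 in stress-high and 1.15 ± 0.0463 in stress-low BLA libraries (SD, n = 3 each).

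No member passed an adjusted p of 0.05 (Benjamini-Hochberg, over all genes tested) in any of the 9 comparisons fitted with edgeR, and DESeq2 and limma on log2(TPM + 1) called none of them either. Over all genes DESeq2 called 1 to 5 genes per comparison and limma on log2(TPM + 1), on genes with a mean of at least 0.5 TPM, called 0 or 1. Without that filter limma called 0 to 4, and with a pseudocount of 0.1 it called 0 to 5. The share of all genes past that threshold was 0 in 8 of the comparisons and 0.00700% (1 gene) in the DG controls by score. Read at an unadjusted p under 0.05, the background over all genes in the BLA was 1.98% for stress-high against stress-low, 2.75% for stress-low against control and 2.57% for stress-high against control. Of the 6 members other than Ncoa3, 0 were past this level in each of the 3 BLA comparisons. In the DG the background was 3.12%, 6.90% and 2.19% in the same order, and 0 of the 5 members tested there were past it. For the difference between regions the background was 1.85%, and 0 of the 4 members other than Ncoa3 were past it. The median log2 fold change of the members for stress-high against stress-low was 0.05 in the BLA (7 genes) and -0.01 in the DG (5 genes), and that of all genes was -0.0006 and -0.0002.

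**Figure D4:**
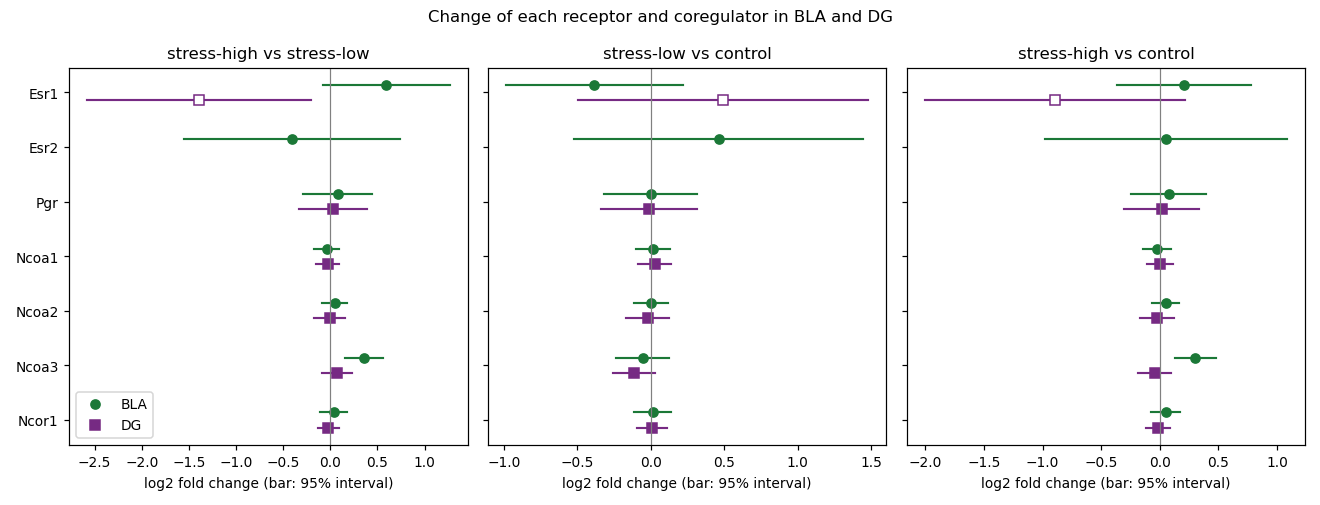
Log2 fold change (horizontal axis) of each gene in the 3 comparisons of groups, for the BLA (circles) and the DG (squares), with 95% intervals from edgeR as bars. Open squares are Esr1 in the DG, fitted without the count filter, and Esr2 in the DG is not drawn. The bars of Ncoa1, Ncoa2 and Ncor1 are short and cross 0 throughout, while those of Esr1 and Esr2 are wide.

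Within unstressed animals the labels split controls by a high or a low composite score, and the values compared here are those of controls, although the stressed libraries entered the same fit and its estimate of the spread. In the BLA, Ncoa3 was at 9.43, 8.07 and 9.59 TPM in high-score animals 14, 17 and 32, and at 11.51, 8.77 and 9.17 TPM in low-score animals 27, 28 and 35. Its log2 fold change of high-score over low-score was -0.13 (SE 0.09, 95% interval -0.34 to 0.07; unadjusted p = 0.182, adjusted p = 0.997 in edgeR). In the DG, Ncoa3 was at 11.87, 14.48 and 13.05 TPM in the high-score controls and at 14.76 and 13.00 TPM in low-score animals 2 and 28, a change of -0.07 (SE 0.08, 95% interval -0.25 to 0.11; unadjusted p = 0.435). The sign in the DG was not stable: the change was 0.03 without animal 2 and 0.14 with the left-out control of animal 35 put back. Neither Esr1, at 0.30 in the BLA (SE 0.32), nor Esr2, at -0.79 (SE 0.55), nor Pgr, at -0.19 (SE 0.17), had an unadjusted p under 0.05. At that level the background was 3.47% for the BLA and 3.59% for the DG, and 0 of 7 and 0 of 6 members tested were past it.

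The wider pathway was described from 7 lists of 85 measured genes named in the tables: other estrogen-responsive and related receptors, corticosteroid receptors, enzymes that make or inactivate estrogens, further coactivators, further corepressors, receptor chaperones and genes that estrogens are known to regulate. In the BLA, 0 of 83 identifiers tested had an unadjusted p under 0.05 for stress-high against stress-low, beside the 1.98% of all genes given above. Of these 83 identifiers, 42 had a positive and the others a negative fold change, and their median was 0.0033. In the DG, 3 of 81 were past this level, all higher in stress-high, beside 3.12% of all genes. For the BLA change minus the DG change, 4 of 80 (5.0%) were past this level in the joint edgeR fit, beside 1.85% of all genes. Of these, 1 was higher and 3 were lower. Pelp1 and Hsd17b8, both past this level in the DG as well, were among the 3. No gene of the lists had an adjusted p under 0.05 in either region or for the difference. Further coactivators had 14 of 21 genes higher in stress-high BLA (median 0.03) and corepressors 7 of 16 (median -0.01), beside 12 of 21 and 7 of 16 in the DG.

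The 3 DG genes were 3.70% of those tested, near the background, and are given as values. Pelp1, a scaffold that links estrogen receptors to signalling kinases, was at 49.47, 46.16 and 48.77 TPM in stress-low and 53.61, 52.29 and 59.20 TPM in stress-high DG libraries, a log2 fold change of 0.20 (SE 0.06, unadjusted p = 0.00652, adjusted p = 1 in edgeR). The stress groups did not overlap, and the DG controls, at 46.34 to 54.77 TPM, overlapped both. Fkbp5, a cochaperone that lowers the hormone affinity of the glucocorticoid receptor and is itself induced by glucocorticoids, was at 39.65, 43.23 and 41.67 TPM in stress-low and 61.09, 46.82 and 44.20 TPM in stress-high DG libraries, a change of 0.30 (SE 0.13, unadjusted p = 0.0397, adjusted p = 1). The stress groups did not overlap, animal 7 was the highest, and the DG controls, at 35.34 to 48.10 TPM, overlapped both. Hsd17b8, an enzyme that can oxidize estradiol to estrone, was at 28.99, 23.13 and 26.58 TPM in stress-low and 28.82, 30.67 and 33.12 TPM in stress-high DG libraries, a change of 0.24 (SE 0.10, unadjusted p = 0.0321, adjusted p = 1). The stress groups overlapped, and the DG controls ran from 30.44 to 34.79 TPM, above all 3 stress-low libraries. In the BLA the stress groups overlapped for all 3 genes.

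Neighbouring receptors gave the scale against which the estrogen receptors were low. The membrane estrogen receptor Gper1 had a mean of 1.54 TPM in BLA controls and 1.35 TPM in DG controls. Nr3c2, the mineralocorticoid receptor, which is abundant in hippocampus, had 73.9 ± 6.99 TPM in DG controls (SD, n = 5) and 10.1 ± 1.14 TPM in BLA controls (SD, n = 6). Aromatase (Cyp19a1) was listed at 1.62 to 2.86 TPM in BLA controls and at 0.16 to 0.28 TPM in DG controls, the same order between regions as that of Esr1 and Esr2. In 11 of 11 animals with both regions, Esr1 and Esr2 were each listed higher in the BLA than in the DG.

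The genes whose levels ran most like Ncoa3 across the 12 BLA libraries, among 12640 genes with a mean of at least 1 TPM, were Ism1 (Pearson r = 0.92 on log2(TPM + 1)), Mpped1 (r = 0.90), Bcl6 (r = 0.90), Sox6 (r = 0.89) and RGD1566029 (r = 0.89). Bcl6 and Sox6 encode transcription factors, Bcl6 a repressor that itself recruits corepressors of the Ncor family. Over the 11 DG libraries the same genes had r between -0.01 and 0.38 with Ncoa3. The genes most like Ncoa3 in the DG were Cluh, Cplx2, Wipf2, Thoc5 and Ergic3 (r from 0.94 to 0.95), and their r in the BLA lay between -0.10 and 0.44. Among members, Ncoa2 ran most like Ncoa3 in the BLA (r = 0.58) and Ncoa1 least (r = 0.04). The genes most like Esr1 in the BLA were Dyrk3, Adamts2, Nog, Mansc1 and 6330403A02Rik (r from 0.81 to 0.85), with r between -0.33 and 0.19 in the DG. All points of a region share the same libraries and the 3 groups, and a top rank among so many genes over so few libraries makes a high r by selection.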

How the data were processed

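Poly-A RNA of 25 libraries (13 BLA, 12 DG) had been sequenced. Reads had been mapped by the authors on the rat build Rn5 (STAR 2.6.0a), and RSEM 1.3.1 gave expected counts per gene. The deposited tables hold, per gene and animal, expected counts and TPM, a length-scaled signal that the authors computed. Here, expected counts were rounded, genes were kept by edgeR's filterByExpr with a minimum of 10 counts, TMM factors were computed, and all 3 groups of a region were fitted with edgeR 4.0.16 (quasi-likelihood, R 4.3.3), with Benjamini-Hochberg adjustment over all genes. The difference between regions came from 1 fit of both regions; DESeq2 1.42.0 and limma 3.58.1 on log2(TPM + 1) or log2(TPM + 0.1) were alternatives. Scripts were tested on simulated counts. Low counts limit the precision for Esr1 and Esr2. The members and gene lists were chosen with earlier results of these data known.

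The named genes were all members, pathway list genes with an unadjusted p under 0.05 for stress-high against stress-low, and the 5 genes most correlated with Ncoa3 and Esr1. Gper1, Nr3c2 and Cyp19a1 were named beyond that rule, after their values were seen. The BLA and DG libraries of an animal are paired by its number in the labels: their deviations from group means correlated at 0.10 to 0.26 (median 0.17) over 9 animals, against a median of -0.01 between different animals. Pairs of different animals ran from -0.22 to 0.18, so the ranges overlapped. 1 gene of the lists is not reported here by name.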

Additional observations from a re-analysis of the deposited data

Results flagged for a closer look

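Gaps of a single library from the rest of its control group were examined for the members' TPM in 26 sets of controls, with and without the left-out control; chance alone flags about 1 set in 20. Of the sets, 5 stood out by Dixon's criterion, and all 5 held the left-out control. That control was picked as the farthest on the first principal component, and a gene's sets with and without it share the other controls. The number of flagged sets is therefore not set against that chance rate. In the BLA, animal 2 was the highest control for Esr2, at 2.79 TPM against 1.06 TPM for the next, and for Ncoa2, at 27.27 TPM against 22.37 TPM. In the DG, animal 35 was the lowest control for Ncoa2, at 11.64 TPM against 25.75 TPM, for Ncoa3, at 6.83 TPM against 11.87 TPM, and for Ncor1, at 96.08 TPM against 111.78 TPM. No set of the controls used stood out. The study describes its excluded DG control as one whose RNA had been extracted again, without naming the animal, and whether animal 35 is that control is not given in the sources used here.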

How the results depend on the processing

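Over 54 fold changes of members in the 9 comparisons, 914 refits under other settings gave 0 values with an adjusted p under 0.05 (smallest 0.481), and 20 of the 54 kept 1 direction throughout. For Ncoa3 the animal number (20 or below against above) was added as a covariate. Stress-high over stress-low then moved from 0.36 to 0.48 in the BLA and from 0.07 to -0.019 in the DG. Controls alone set that covariate. Those numbered 20 or below and those above had mean Ncoa3 levels of 8.75 and 9.76 TPM in the BLA. In the DG the means were 13.70 and 13.03 TPM. What lies behind these differences among controls was not tested. Leaving out 1 library at a time, the Ncoa3 change ran from 0.29 to 0.40 in the BLA and from 0.03 to 0.10 in the DG, and the difference between regions from 0.20 to 0.32. Esr1 in the DG, stress-low over control, ran from -0.16 (without animal 22) to 0.70 on the log2 scale of mean TPM. The replicate block by title number within a region gave 0.36 for Ncoa3 in the BLA. Same-numbered libraries correlated at a median of -0.01 in the BLA and -0.04 in the DG, so the numbers do not pair them. Under the block by animal, to which animals with a single region add nothing, the Ncoa3 difference between regions was 0.36, and no call changed. Under the animal-number covariate Pgr in the BLA went from 0.08 to 0.55 (unadjusted p = 0.0156) and Esr1 there went from 0.59 to 0.18. Counts limit Esr1 and Esr2: Esr1 had 3 to 15 in the DG and Esr2 0 to 4.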
